A study of Mus musculus with 12 samples.

Results

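Dppa2, Dppa3, Dppa4 and Dppa5a (developmental pluripotency-associated genes) and Fbxo15 are 5 genes known for their expression in pluripotent and germ cells. They were taken as the probe sets whose annotated symbol was exactly one of those names, and they had 6 probe sets among the 45037 on the array. The 5 are set against 12737 named genes with a tested probe set. Dppa2 had 2 and each other gene 1. A gene is represented by its brightest set. All 6 were bright enough to be tested, among 27022 probe sets in all. RNA came from mouse D3 embryonic stem cells, an established line grown here as a bulk culture in 15% serum for 7 days. There were 3 Affymetrix arrays for each of 4 conditions: no LIF with lithium at 50 nM (LIF-free plus lithium), no LIF and no lithium (LIF-free), LIF at 1000 units per ml with lithium at 50 nM (LIF plus lithium), and LIF at 1000 units per ml alone (LIF). The lithium dose is printed as the labels state it. The files hold no measure of it, so whether that unit was the one used cannot be told, and the lithium results hold for the labelled condition only. The labels call the 3 arrays of a condition biological replicates, and the design text speaks of independent experiments behind each replicate without saying whether their RNA was pooled. The p values measure the spread between these arrays.

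The cytokine LIF keeps serum-grown mouse embryonic stem cells undifferentiated through its receptor and STAT3. Dppa2 and Dppa4 are SAP-domain proteins that pair on DNA, sit at promoters of developmental genes and keep them open to later activation. They also switch on transcripts of the cleavage-stage embryo. Dppa3, also called Stella, is a maternal and germline protein that keeps UHRF1 and the maintenance methyltransferase from their DNA targets, and it marks primordial germ cells. Dppa5a, also called Esg1, is a small RNA-binding protein with a KH domain. Fbxo15 is an F-box protein, the part of an SCF ubiquitin ligase that picks substrates, and its enhancer is bound by Oct4 and Sox2. A Fbxo15 reporter served to select the earliest induced pluripotent cells.

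Without LIF the 5 genes fell into distinct patterns. Dppa2 and Fbxo15 kept less than 50% of their LIF signal. Dppa4 kept about 67%, Dppa5a about 85% with no call, and Dppa3 was not lower in mean, at 150% with wide spread. A gene was said to stay high where all 6 LIF-free arrays lay above the signal of the intensity filter (7.52) and their mean was at least 50% of the 6 LIF arrays. Dppa3, Dppa4 and Dppa5a met this, and Dppa2 and Fbxo15 did not, although both remained far above that signal on every array. Lithium changed none of the 5 at the threshold.

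**Figure D1:**
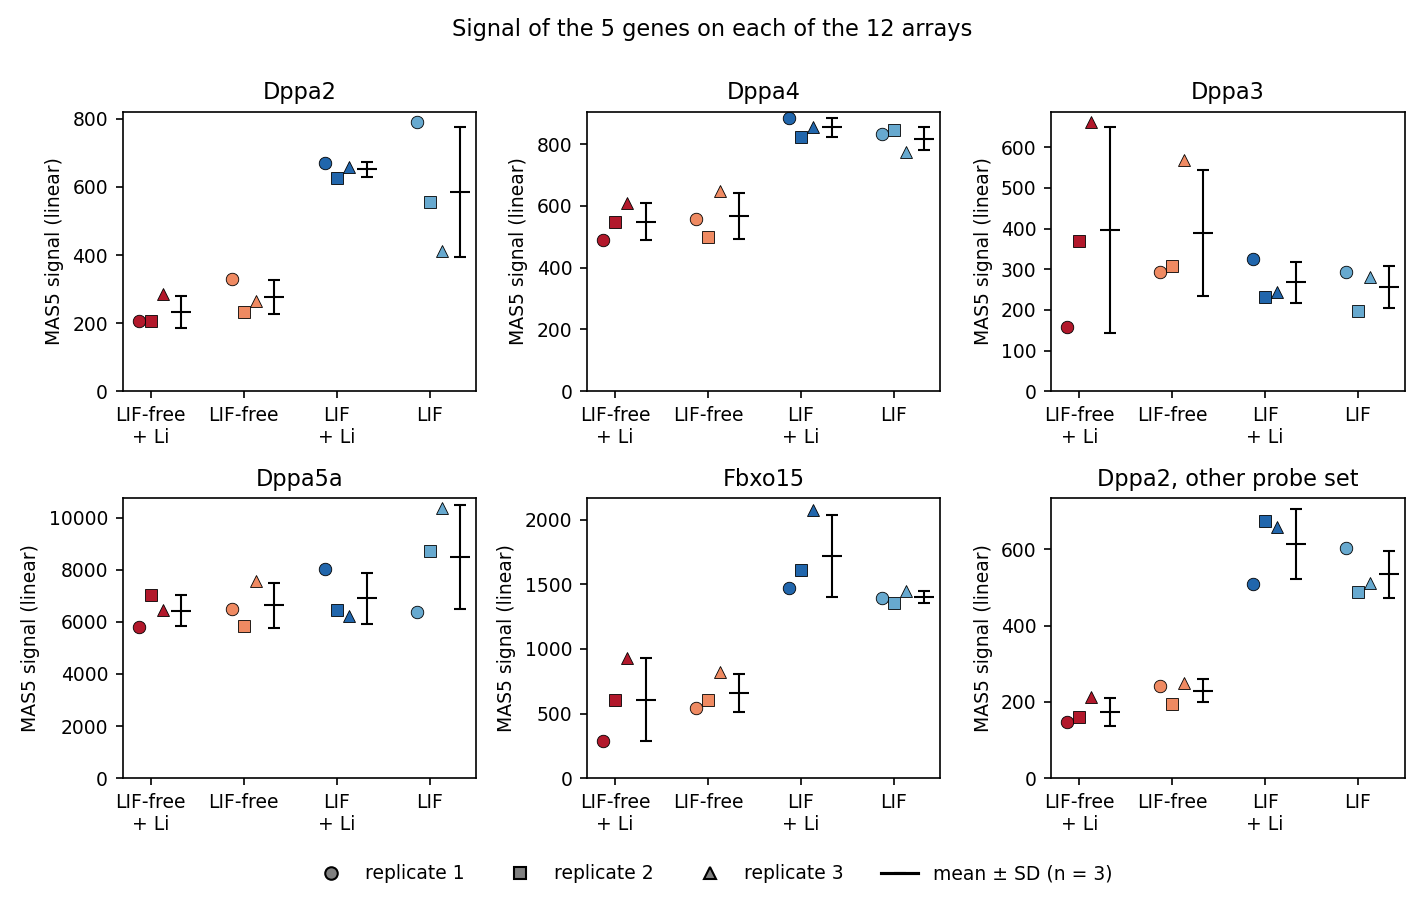
MAS5 signal (linear, from 0) of each gene on the 12 arrays by condition, with markers for replicates 1 to 3 and bars for mean ± SD (n = 3). The LIF-free arrays lie below all LIF arrays for Dppa2, Dppa4 and Fbxo15, and overlap them for Dppa5a and, taken over all 12 arrays, for Dppa3.

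The array values were MAS5 signals scaled by the authors to a common trimmed mean of 100 per array, and median signal per array ran from 10.5 to 19.3. Between any pair of arrays, r of log2 signal over probe sets was 0.875 to 0.953. The label of embryonic stem cells was checked on 8 defining genes. None was below the filter signal on all arrays of a condition, and all 8 fell without LIF, averaged over lithium. Their summed signal was 3942 to 8037 in LIF-free plus lithium against 14912 to 17384 in LIF plus lithium, and 5450 to 7322 in LIF-free against 12969 to 20074 in LIF. The 6 LIF-free arrays had Gapdh 3 prime to 5 prime ratios of 0.739 to 0.802, against 0.798 to 0.860 on the 6 LIF arrays, which barely overlap. The part of this measure of RNA integrity in the results was not tested. In bulk cultures, fewer cells expressing a gene and less RNA per cell cannot be told apart.

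The SAP-domain pair came first, with the question whether both genes fell without LIF. Dppa2 and Dppa4 are neighbours on the same chromosome with 0 protein-coding genes between them in the RefSeq gene table. Dppa2 signals were 205, 206 and 286 on the LIF-free plus lithium arrays, against 669.6, 628 and 659 on the LIF plus lithium arrays. Without lithium they were 330.4, 234 and 264 on LIF-free arrays, against 792, 555 and 413 on LIF arrays. Every LIF-free array was below every LIF array, and LIF replicate 3 was the lowest and LIF replicate 1 the highest of those with LIF. Means were 232 ± 46.4 in LIF-free plus lithium and 652 ± 21.6 in LIF plus lithium, and 276 ± 49.2 in LIF-free and 586 ± 191 in LIF (SD, n = 3 each). limma's log2 change was -1.51 ± 0.22 with lithium (SE, adjusted p = 0.00159) and -1.05 ± 0.22 without it (adjusted p = 0.0109). Averaged over lithium, Dppa2 was 2.43 times lower without LIF (log2 change -1.28, 95% interval -1.61 to -0.94, adjusted p = 0.000106).

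The other Dppa2 probe set gave a lower signal and a larger fall. It read 147, 159 and 214 in LIF-free plus lithium, against 509.9, 674 and 659.6 in LIF plus lithium. In LIF-free arrays it read 242, 194 and 251, against 604, 489 and 512 in LIF arrays. The groups did not overlap here either. Its log2 change was -1.83 with lithium (adjusted p = 0.000486) and -1.23 without lithium (adjusted p = 0.00203), so both sets of the gene gave one direction and call.

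Dppa4 was less affected. Its signals were 489, 548 and 608 in LIF-free plus lithium, against 885, 824 and 855 in LIF plus lithium. They were 556, 498 and 648 in LIF-free, against 834, 845 and 774 in LIF. No LIF-free array reached the lowest LIF array, and the LIF arrays were tight, with a coefficient of variation of 3.6% with lithium and 4.64% without lithium. The log2 change was -0.65 ± 0.13 with lithium (SE, adjusted p = 0.00683) and -0.53 ± 0.13 without it (adjusted p = 0.021). Averaged over lithium it was -0.59 (95% interval -0.79 to -0.39, adjusted p = 0.000514), or 1.51 times lower without LIF, and 66.7% of the mean LIF signal remained.

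Fbxo15, the F-box gene driven by Oct4 and Sox2, fell to a similar extent as Dppa2's brightest probe set. Signals were 291, 607 and 926 in LIF-free plus lithium, against 1469.6, 1606 and 2073 in LIF plus lithium. In LIF-free they were 545, 608 and 824, against 1397, 1352 and 1445 in LIF. All LIF-free arrays were lower than all LIF arrays, and the LIF-free plus lithium arrays were the most spread, with replicate 1 low and replicate 3 high. The mean was 608 ± 318 in LIF-free plus lithium and 1716 ± 317 in LIF plus lithium, and 659 ± 146 in LIF-free and 1398 ± 46.6 in LIF (SD, n = 3 each). The log2 change was -1.63 ± 0.31 with lithium (SE, adjusted p = 0.00575), -1.11 ± 0.31 without lithium (adjusted p = 0.0437) and -1.37 averaged over lithium (95% interval -1.85 to -0.89, adjusted p = 0.000755). The share of the LIF signal kept was 35.4% with lithium and 47.1% without lithium. Dppa2's brightest probe set kept 35.6% and 47.1%, and its other set 28.2% and 42.8%. The averaged log2 change of that other set was -1.53, a larger fall than that of Fbxo15.

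The calls without lithium depended on single arrays and on the scaling. Fbxo15 lost its call in 8 of 12 fits that left out 1 array (highest adjusted p = 0.132, without LIF-free replicate 1). Among these were fits without LIF-free plus lithium replicate 2 (adjusted p = 0.0615) or LIF plus lithium replicate 2 (adjusted p = 0.0634). Those arrays lie outside the comparison and enter only through the shared estimate of spread. Dppa4 lost it without LIF-free replicate 1 (adjusted p = 0.0705), LIF-free replicate 2 (adjusted p = 0.0977) or LIF replicate 2 (adjusted p = 0.0774), and Dppa2 without LIF-free replicate 2 (adjusted p = 0.057). With each array centred on its median, the log2 changes without lithium were -0.86 for Dppa2 (adjusted p = 0.132), -0.34 for Dppa4 (adjusted p = 0.589) and -0.91 for Fbxo15 (adjusted p = 0.262). Under that scaling the median change over everything tested was 0.13 on the log2 scale, against -0.07 as deposited. With replicate number as a block in limma, all 3 kept their calls without lithium. The adjusted p was 0.00222 for Dppa2, 0.00795 for Dppa4 and 0.00303 for Fbxo15. With lithium, and averaged over lithium, all 3 genes kept their calls with any 1 array left out and under median centring.

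Dppa3, the maternal and germline protein, did not follow the others. Its signals were 158, 369 and 662 in LIF-free plus lithium, against 326, 233 and 244 in LIF plus lithium. They were 294, 307 and 569 in LIF-free, against 292, 196 and 279.7 in LIF. Without lithium all 3 LIF-free arrays were above the LIF arrays, the lowest by a small margin, a pattern that 13.8% of tested probe sets shared in that direction. The change there was not called (log2 change 0.56, adjusted p = 0.447). With lithium the groups overlapped, since LIF-free plus lithium replicate 1 was the lowest of the 12 arrays and replicate 3 the highest. Averaged over lithium the log2 change was 0.46 ± 0.29 (SE, 95% interval -0.17 to 1.08, adjusted p = 0.293). Without LIF-free plus lithium replicate 1 the log2 change was 0.73 and passed (adjusted p = 0.0315), as it did with array weights (0.61, adjusted p = 0.0429). Without LIF-free plus lithium replicate 3 the change with lithium turned to -0.13 (adjusted p = 0.838).

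Dppa5a, the KH-domain protein, gave the least change of the 5 in size averaged over lithium. Its signals were 5823, 7039 and 6442 in LIF-free plus lithium, against 8035, 6459 and 6242 in LIF plus lithium. They were 6493, 5847 and 7576 in LIF-free, against 6374, 8738 and 10367 in LIF. The groups overlapped in both cases, and LIF replicate 3 stood highest. The log2 change was -0.10 ± 0.17 with lithium (SE, adjusted p = 0.776) and -0.34 ± 0.17 without it (adjusted p = 0.265). Averaged over lithium it was -0.22 (95% interval -0.48 to 0.05, adjusted p = 0.237). A fall was called without LIF replicate 1 (averaged log2 change -0.31, adjusted p = 0.0388) and after quantile normalisation (-0.30, adjusted p = 0.00245), and without lithium also with array weights (-0.44, adjusted p = 0.0167). Median centring gave a log2 change with lithium of -0.44 for Dppa5a (adjusted p = 0.328), against 0.0084 for Dppa3 (adjusted p = 0.994), so with lithium that order depends on the scaling. The brightest probe set of an array read 8795 to 14273, so Dppa5a lay near the top of the scale. The RefSeq gene table also lists the pseudogenes Dppa5b and Dppa5c beside Dppa5a, and Dppa3-ps, and signal from such copies was not separated here.

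**Figure D2:**
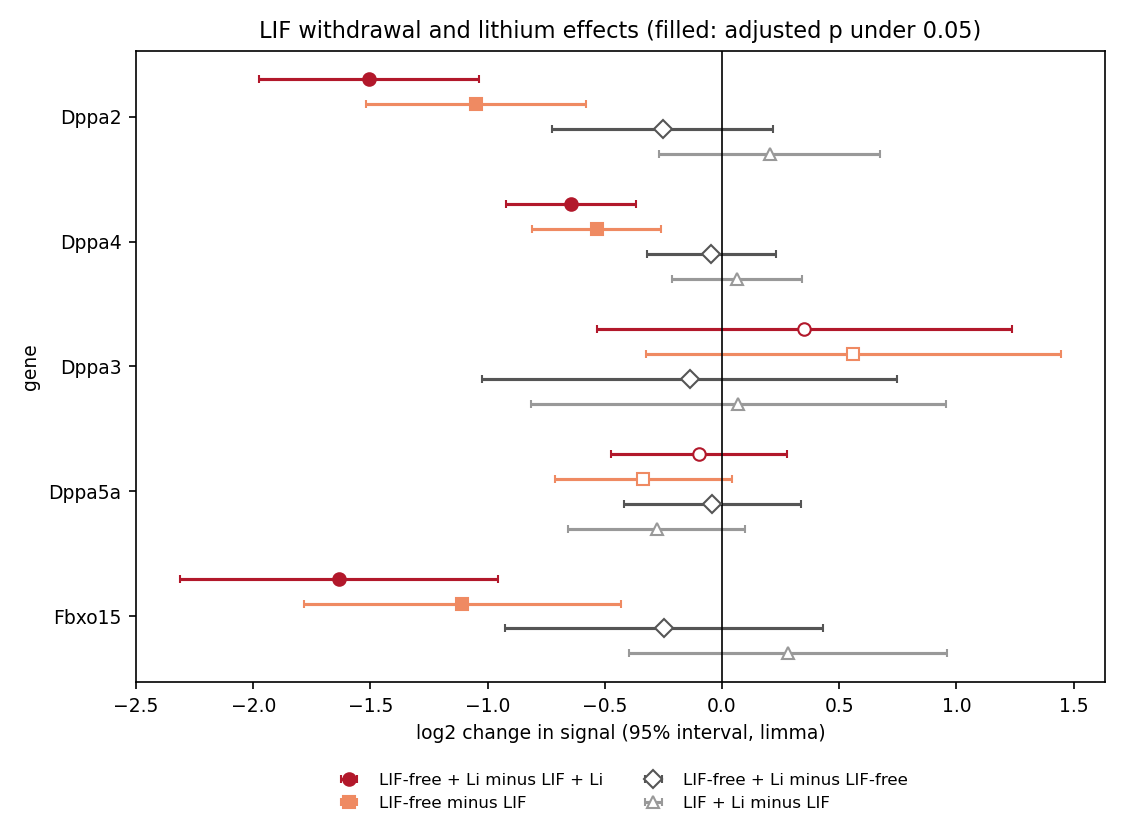
Log2 change (limma, bars are 95% intervals) of the 5 genes for LIF withdrawal with and without lithium and for lithium without and with LIF. Filled points pass an adjusted p of 0.05: Dppa2, Dppa4 and Fbxo15 in both withdrawal comparisons, and no gene for lithium.

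Counted together, 3 of the 5 genes were called in LIF withdrawal with lithium, without lithium and averaged over lithium, each time Dppa2, Dppa4 and Fbxo15 and each time lower. The background share of tested probe sets called was 12.5% with lithium, 9.31% without lithium and 24.7% averaged over lithium. Called lower were 4.93%, 3.91% and 10.8% in that order. These 3 genes also had no overlap between the 6 LIF-free and the 6 LIF arrays, which held in the lower direction for 5.91% of tested probe sets. Within the lithium arrays that share was 13.5%, and within those without lithium 13.7%. The comparisons with and without lithium contrast different arrays. They share one estimate of spread from all 12, so their calls are not independent repeats. Their average uses all 12.

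Whether the genes differed from each other in their response was tested on the difference of log2 signals within each array. LIF labels were permuted exactly within the lithium and lithium-free arrays, giving 400 arrangements and a smallest two-sided p of 0.005. Of 10 pairs, 8 differed after Benjamini-Hochberg adjustment. When labels were swapped only within pairs of equal replicate number, 0 of 10 passed (lowest adjusted p = 0.0521), in a design whose smallest exact p is 0.0312. Every comparison with that adjusted p of 0.0521 already had the smallest exact p. The swap therefore cannot decide whether those genes differ. Dppa2 lost more than its partner Dppa4, by 0.69 on the log2 scale (exact p = 0.01, adjusted p = 0.0167), lower in all 6 pairs of equal replicate number. Fbxo15 also lost more than Dppa4, by 0.78 (exact p = 0.005, adjusted p = 0.0125). Dppa2 and Fbxo15 differed by 0.09 (exact p = 0.735), and the test does not show that they respond alike.

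Dppa3 stood apart from the 3 genes that fell. Its log2 change exceeded that of Fbxo15 by 1.83 (exact p = 0.005, adjusted p = 0.0125) and that of Dppa4 by 1.05 (exact p = 0.01, adjusted p = 0.0167). Dppa2's change was lower than Dppa3's, by -1.73 (exact p = 0.005, adjusted p = 0.0125). Dppa5a's change exceeded that of Fbxo15 by 1.15 (exact p = 0.005, adjusted p = 0.0125), and Dppa2's was lower than Dppa5a's, by -1.06 (exact p = 0.015, adjusted p = 0.0214). Dppa4 minus Dppa5a was -0.37 (exact p = 0.035, adjusted p = 0.0438), a call that 11 of 12 fits with 1 array left out did not keep (highest adjusted p = 0.106, without LIF replicate 1). Dppa3 and Dppa5a differed by 0.67 without passing (exact p = 0.08, adjusted p = 0.0889), but passed without LIF-free plus lithium replicate 1 (adjusted p = 0.0143). These tests compare different probe sets, and the 2 sets of Dppa2 themselves gave averaged log2 changes of -1.53 and -1.28. Whether signal follows RNA equally across probe sets, including the bright Dppa5a set, was not tested.

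Lithium was compared next, with and without LIF. limma called 0 of the 5 genes and 0 of 27022 probe sets in either case, a background of 0%, and 0 of the 5 had an unadjusted p under 0.05 on its brightest probe set. The other Dppa2 set did for lithium without LIF (log2 change -0.41, 95% interval -0.79 to -0.03) and for the interaction (-0.61, 95% interval -1.15 to -0.07), and limma's adjusted p called neither. At that unadjusted level 1.28% of probe sets passed without LIF and 2.77% with LIF. Without LIF the 5 log2 changes for lithium ran from -0.25 to -0.04, and with LIF from -0.28 to 0.28. Averaged over LIF the intervals of the 5 genes together spanned -0.66 to 0.59, both bounds set by Dppa3, and for Dppa4 the interval was -0.19 to 0.20. Fbxo15 was higher on all 3 LIF plus lithium arrays than on the LIF arrays, which 1.64% of tested probe sets also were. Its log2 change was 0.28 ± 0.31 (SE, adjusted p = 0.999). Dppa2 and Fbxo15 kept less signal with lithium than without lithium, but limma called no interaction for either (log2 difference -0.46 for Dppa2 and -0.53 for Fbxo15, adjusted p = 0.999 each). No interaction was called for the other 3 genes, nor for any probe set tested, while 2.46% of them had an unadjusted p under 0.05.

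The spread within a condition differed between the genes. In LIF-free plus lithium, Dppa3 had a coefficient of variation of 63.9% and Fbxo15 of 52.2%, against 10.8% for Dppa4 and 9.45% for Dppa5a. Replicate 1 there lay 1.10 below the condition mean on the log2 scale for Dppa3 (-1.10) and 0.91 below it for Fbxo15 (-0.91), and replicate 3 lay 0.97 and 0.76 above. In LIF-free arrays replicate 3 was again the high one, by 0.61 for Dppa3 and 0.34 for Fbxo15. With LIF the coefficients were 19% for Dppa3 and 18.4% for Fbxo15 with lithium, and 20.4% and 3.34% without lithium. After each array was set against its condition mean, the log2 signals of Dppa3 and Fbxo15 correlated with r = 0.871 over the 12 arrays, against r = 0.0431 before, and those of Dppa2 and Dppa4 with r = 0.480, against 0.934 before. These are descriptions, since arrays share their scaling.

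**Figure D3:**
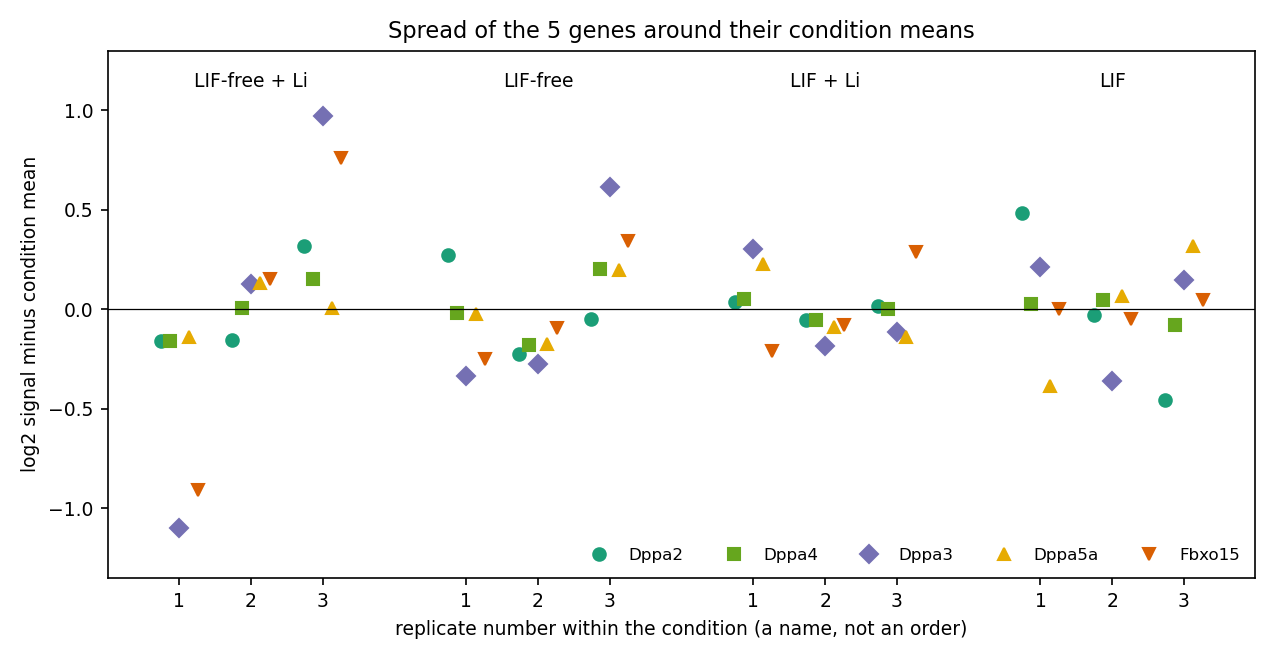
Log2 signal of each gene minus its condition mean, for replicates 1, 2 and 3 of the 4 conditions. In LIF-free plus lithium, Dppa3 and Fbxo15 lie lowest in replicate 1 (-1.10 and -0.91) and highest in replicate 3 (0.97 and 0.76), while Dppa4 spans -0.18 to 0.20 over all 12 arrays.

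The genes whose pattern was most like each member were sought among 12204 named genes by Pearson's r of log2 signal over the 12 arrays, as a description. Arrays of one condition share the LIF effect and array scaling, so r is high for many genes. For Dppa2 they were the zinc finger gene Zfp979 (r = 0.985), Actl6a, a BAF chromatin subunit (r = 0.980), and Ccnb1ip1, a meiotic crossover factor (r = 0.977). For Dppa4 they were Platr10, a noncoding RNA (r = 0.978), the tubulin Tuba4a (r = 0.977) and Eras, a Ras protein of embryonic stem cells (r = 0.977). For Fbxo15 they were Tcl1, an Akt coactivator (r = 0.981), Noxred1 (r = 0.981) and Hsd17b11, a steroid dehydrogenase (r = 0.974).

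For Dppa3 the nearest patterns were those of Cd59a, a complement inhibitor (r = 0.959), Zdhhc2, a palmitoyltransferase (r = 0.924), and Pim2, a kinase (r = 0.911). Averaged over lithium their LIF changes were 0.45, 0.34 and 0.56 on the log2 scale. For Dppa5a they were Rps18, a ribosomal protein (r = 0.917), Odc1, which makes putrescine (r = 0.916), and Mif, a cytokine (r = 0.913). Their log2 changes were -0.12, -0.07 and -0.18. A neighbour's change resembles its member's because r over the same arrays chose it.

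Related gene lists were set beside the 5 genes in LIF withdrawal averaged over lithium, where 13.9% of tested probe sets were called higher and 10.8% lower, and the median log2 change over all named genes was 0.02. The Oct4 and Sox2 enhancer list holds genes controlled, like Fbxo15, by that pair. Of its 7 measured members 6 fell, 0 rose and 1 did not pass, with a median log2 change of -1.22. Pou5f1, the Oct4 gene, averaged 748 ± 253 in LIF-free plus lithium against 2082 ± 328 in LIF plus lithium, and 795 ± 129 in LIF-free against 2281 ± 989 in LIF (SD, n = 3 each, log2 change -1.48 ± 0.21, adjusted p = 0.000287). Sox2, its partner, changed by -1.08 on the log2 scale (adjusted p = 0.00115). The homeobox gene Nanog changed by -0.999 (adjusted p = 0.00436) and Zfp42, a zinc finger marker of undifferentiated cells, by -1.25 (adjusted p = 2.91e-05). The growth factor gene Fgf4 changed by -2.28 (adjusted p = 0.000204). Fbxo15, at -1.37, lay within the range of these genes.

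In a list of 10 transcripts associated with embryonic stem cells, 10 fell, with a median log2 change of -1.22. The count was 9 after median centring, and 9 to 10 with 1 array left out. Nanog, Utf1 and Zfp42 are also in the Oct4 and Sox2 enhancer list, and Khdc3 in the maternal complex list below. The falls in these lists are therefore partly the same genes. Khdc3, a KH-domain protein of oocytes and stem cells, changed by -2.54 (adjusted p = 4.16e-05), Tdgf1, a Nodal co-receptor, by -1.89 (adjusted p = 1.69e-05) and Eras by -1.60 (adjusted p = 1.92e-05). Dppa5a belongs to a KH-domain family of oocyte genes that includes Khdc3 and Ooep. Among 12 listed relatives and members of the oocyte's subcortical maternal complex, 6 were measured, of which 4 fell, 0 rose and 2 did not pass (median log2 change -1.39). With the filter at the 60th percentile, 4 of them were measured, of which 3 fell. Ooep averaged 211 ± 53.7 in LIF-free plus lithium against 1018 ± 253 in LIF plus lithium, and 220.1 ± 57.8 in LIF-free against 936 ± 291 in LIF (SD, n = 3 each, log2 change -2.17, adjusted p = 1.92e-05). Nlrp4f, an NLR protein, changed by -2.43 (adjusted p = 0.00442) and Tle6, a Groucho-like protein, by -0.60 (adjusted p = 0.0273). The Tle6 call ended in 4 fits with 1 array left out (highest adjusted p = 0.0732, without LIF plus lithium replicate 3) and after median centring (adjusted p = 0.0739). Dppa5a itself, at -0.22, had no call.

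Germ cell genes were listed for Dppa3, which marks that lineage. Of 16 measured, 12 fell, 1 rose and 3 did not pass, with a median log2 change of -1.47. Slc25a31, a germline ADP/ATP carrier, changed by -2.93 (adjusted p = 0.000472), with means of 5.08 in LIF-free plus lithium and 4.93 in LIF-free, both under the filter signal. Dazl, an RNA-binding protein of germ cells, averaged 10.0 ± 3.68 in LIF-free plus lithium against 57.8 ± 27.4 in LIF plus lithium, and 5.89 ± 2.66 in LIF-free against 51.8 ± 29.0 in LIF (SD, n = 3 each, log2 change -2.78, adjusted p = 0.000172). Its LIF-free mean was also under the filter signal, so both genes passed that filter through the LIF arrays. Their fold changes and adjusted p values are uncertain, and both are counted in the 12 and in the median. With the filter at the 60th percentile, 11 germ cell genes were measured, of which 7 fell and 1 rose. Mael, a piRNA pathway protein, changed by -2.35 (adjusted p = 0.000221) and the RNA helicase Ddx4 by -1.42 (adjusted p = 0.000618). The gene that rose was Tfap2c, a transcription factor of germ cell specification (log2 change 0.71, adjusted p = 0.00135), named after its value was seen. After median centring 0 of the 16 were called higher, so that call was lost. Dppa3, at 0.46, had no call.

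Dppa3 acts on DNA methylation, and 12 of 13 listed writers, erasers and partners were measured. Of these 6 fell, 2 rose and 4 did not pass, with a median log2 change of -0.32. The dioxygenase genes Tet1 and Tet2, which oxidise methylated cytosine, changed by -1.54 (adjusted p = 5.39e-05) and -1.63 (adjusted p = 2.4e-05). Dnmt3l, a cofactor of de novo methylation, changed by -1.22 (adjusted p = 0.00014), and Zfp57, which holds methylation at imprints, by -1.41 (adjusted p = 0.0013). The 2 that rose were Dnmt3b (0.79, adjusted p = 0.0236), which is also in the primed epiblast list, and Uhrf2 (0.50, adjusted p = 0.00565). Uhrf1 changed by -0.45 (adjusted p = 0.0239), and Dnmt1, the maintenance methyltransferase gene, had no call (-0.20, adjusted p = 0.246). Transcripts of the cleavage stage that Dppa2 and Dppa4 can activate were mostly not tested. Of 24 listed, 15 had no probe set annotated with that symbol alone, 8 were below the filter and 1 was tested. Probe sets with several symbols were assigned to no gene, so genes that share a probe set may be among the 15. The 1 tested was Sp110, a nuclear body protein (log2 change 0.08, adjusted p = 0.898).

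The SCF ligase list was set beside Fbxo15. Among 18 measured core subunits and other F-box genes, 3 rose, 2 fell and 13 did not pass, with a median log2 change of 0.03. Cul1, the scaffold, averaged 699.8 ± 30.6 in LIF-free plus lithium against 432 ± 86.6 in LIF plus lithium, and 646 ± 31.8 in LIF-free against 418 ± 130 in LIF (SD, n = 3 each, log2 change 0.70, adjusted p = 0.00361). Fbxw11, a beta-TrCP adaptor, rose by 0.42 (adjusted p = 0.00652) and Fbxo4 by 0.93 (adjusted p = 0.0106), and Fbxo5, an inhibitor of the anaphase-promoting complex, fell by 0.35 (adjusted p = 0.0191). After median centring 2 rose and 0 fell, with Fbxw11 (adjusted p = 0.242) and Fbxo5 (adjusted p = 0.218) no longer called. Fbxo5 also lost its call in 4 fits with 1 array left out (highest adjusted p = 0.0545, without LIF-free plus lithium replicate 1).

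**Figure D4:**
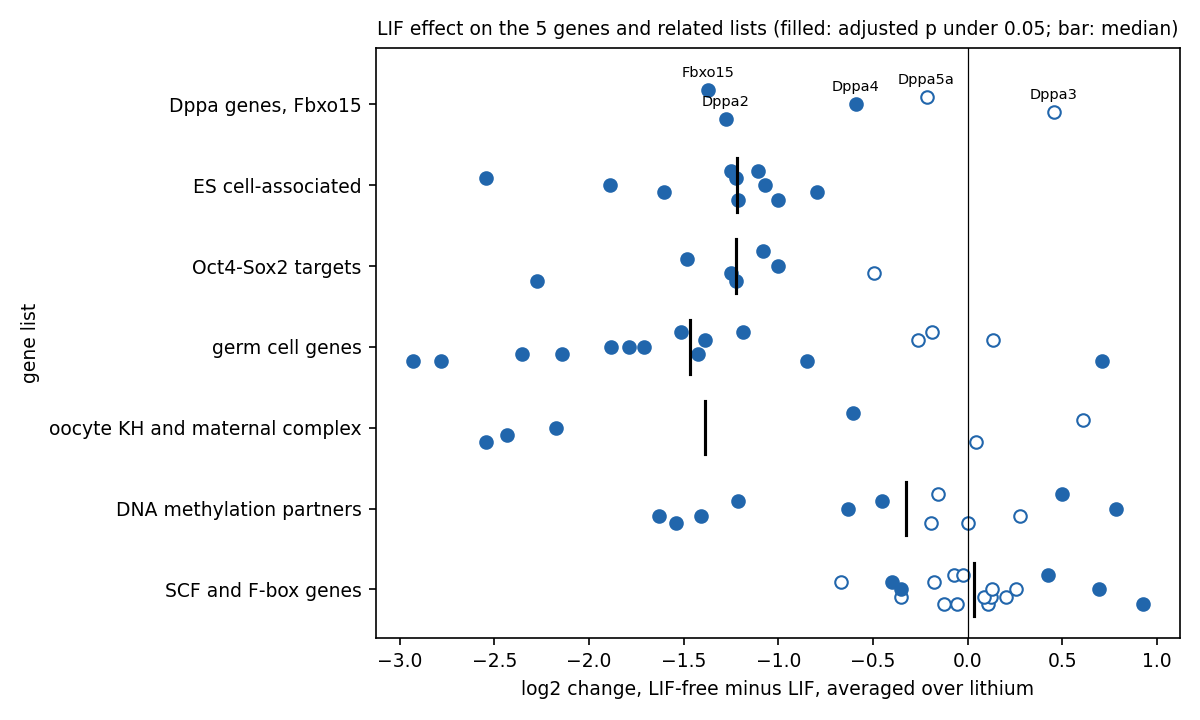
Log2 change of LIF-free minus LIF, averaged over lithium, for the 5 genes and for each measured gene of 6 related lists. Filled points pass an adjusted p of 0.05 and bars are list medians, from -1.47 for germ cell genes to 0.03 for SCF and F-box genes.

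Markers of the primed epiblast and of several differentiated cell types rose without LIF, beside the falls of Dppa2, Dppa4 and Fbxo15. They were counted averaged over lithium, where 13.9% of tested probe sets were called higher and 10.8% lower. Hand1 is in both the trophoblast and the mesoderm list, so the counts of these lists are not fully separate. Of 11 primed epiblast markers 7 rose and 1 fell, and their summed signal per array was 3789 to 4326 in LIF-free plus lithium against 1369.5 to 2868 in LIF plus lithium, and 4092 to 4447 in LIF-free against 1445 to 3092 in LIF. All 9 measured trophoblast markers rose, among them the simple-epithelium keratin Krt18 (log2 change 1.53, adjusted p = 2.1e-05), with summed signals of 11457 to 13823 in LIF-free plus lithium against 3044 to 5171 in LIF plus lithium, and 11291 to 13811 in LIF-free against 3426 to 5677 in LIF. Of 9 mesoderm markers 7 rose and 0 fell, with sums of 530.4 to 1092 in LIF-free plus lithium against 414 to 467 in LIF plus lithium, and 581 to 1163 in LIF-free against 359.9 to 539.7 in LIF. Of 11 primitive endoderm markers 4 rose and 1 fell, and of 8 neural markers 2 rose and 1 fell. The neural counts are too small to set apart from the shares over all tested probe sets. Of 8 measured fibroblast and feeder markers 4 rose and 1 fell, from low signals: sums over 12 genes were 416 to 991 in LIF-free plus lithium against 263 to 497 in LIF plus lithium, and 412 to 749.9 in LIF-free against 362 to 577 in LIF. Fap was below the filter signal on every array, as was Afp. The part of such cells in the change of Dppa2, Dppa4 and Fbxo15 was not tested.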

How the data were processed

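Total RNA from D3 cells was hybridised as biotin-labelled cRNA to Affymetrix mouse arrays, 12 in all. The deposited values are signal intensities per probe set, made by the authors with MAS5 per the submitters' processing notes. Version and settings are not given in the sources used here, and array data hold no read depth, so the number of arrays limits precision. The table has 45101 probe sets, 64 of them controls that were not used. Signals were floored at 1 (0.146% of tested values lay lower) before taking log2. Testing was limited to probe sets whose 12-array mean exceeded the 40th percentile (signal 7.52). Symbols came from the platform annotation: 34945 probe sets had 1 symbol, 932 several and 9160 none. Updating by gene ID matched 34741 and changed 0.

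A model with 1 mean per condition was fitted with limma 3.58.1 in R 4.3.3 (eBayes with trend), for 7 comparisons, two-sided, with Benjamini-Hochberg adjustment over 27022 probe sets and a threshold of 0.05. It was tested on simulated data with noise drawn independently for each array, a setting without the residual correlations between arrays described below. Pairs of genes were compared by exact permutation in Python 3.11.15, and plots drawn with matplotlib 3.10.9. The genes, the 14 lists and the tests were chosen with earlier results of these data known. Named besides the 5 genes were Pou5f1, Sox2, Nanog and Zfp42, up to 4 called genes per list with the smallest averaged p, and 3 nearest patterns per gene, not every one of which is printed. Tfap2c, Dnmt3b, Uhrf2, Uhrf1 and Dnmt1 were named after their values were seen.

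Equal replicate numbers, taken from the labels, were checked by correlating array residuals between conditions. All 3 correlations passed 0.1 between LIF-free and LIF (0.438, 0.137 and 0.339). Between LIF-free plus lithium and LIF plus lithium they did not all pass (0.451, 0.0972 and 0.379), by a small margin. Arrays share their scaling, so these values cannot settle whether equal numbers mark shared cultures. The reported limma values for both comparisons use no replicate block, which was run as an alternative. Promoter motifs were not analysed here.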

Additional observations from a re-analysis of the deposited data

How the results depend on the processing

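Alternatives were quantile normalisation, median centring, adding 16 before the log, testing everything, filtering at the 60th percentile instead, the replicate block, no intensity trend, array weights, averaging Dppa2's probe sets, only the compared arrays, and leaving out each array. The count of the 5 genes called in withdrawal without lithium, 3 as reported, was 0 after median centring, 1 without the intensity trend, 1 with only the compared arrays, 2 with everything tested, and 4 with quantile normalisation or array weights, and ran from 0 to 3 with 1 array left out. It stayed 3 with lithium when 1 array was left out, and was 3 to 4 averaged over lithium. Lithium and interaction counts were 0 under every alternative run. With the replicate block no member changed its call (withdrawal without lithium: Dppa2 adjusted p = 0.00222, Fbxo15 adjusted p = 0.00303). Of the pairs of genes that differed, 8 as reported and 7 to 8 with 1 array left out, 0 passed when labels were swapped within replicate pairs (replicate block), where the smallest p is 0.0312 and 6 pairs reached an adjusted p of 0.0521. Those 6 already had the smallest p, so the swap cannot decide whether they differ. No result changed sign and call together. Filtering at the 60th percentile left 11 germ cell genes (7 lower, 1 higher), 4 mesoderm (3 higher) and 3 fibroblast markers (0 called). Median centring left 1 higher and 4 lower among the DNA methylation genes. The motif window was not run. Depth has no counterpart on arrays, and sets near the filter signal carry the least reliable fold changes.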
